A study of Mus musculus with 6 samples.

Results

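Valine and isoleucine are broken down in mitochondria by a short series of enzymes that act after the branched-chain ketoacid dehydrogenase. The 9 genes described here are the transcripts of those steps, chosen by their place in the pathway, with earlier results of these data known: Acad8, Acadsb, Echs1, Hibch, Hibadh, Aldh6a1, Hsd17b10, Acat1 and Abat. All 9 were found among the 24062 gene symbols of the count table, and all 9 passed the filter on low counts that left 13300 genes to test. They were measured by RNA sequencing of brown adipose tissue, a heat-producing fat, in male C57BL/6 mice aged 12 weeks. The libraries came from 3 mice labelled FAM195A Knock out, compared with 3 mice labelled FAM195A heterozygous. By their label the heterozygous mice carry an altered allele too, and no wild-type group is analysed here. The series describes FAM195A as a stress granule protein that binds RNA and that mice need for heat production in the cold. Housing temperature, the way the allele was made and whether it is confined to a cell type are not stated in the labels.

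As background, brown fat takes up branched-chain amino acids and oxidises them, and does so more strongly in the cold. In the valine branch an acyl-CoA dehydrogenase (Acad8) makes a double bond, a hydratase (Echs1) adds water, a hydrolase (Hibch) removes coenzyme A, a dehydrogenase (Hibadh) makes a semialdehyde, and Aldh6a1 turns that into propionyl-CoA. The isoleucine branch runs through Acadsb, the same hydratase, Hsd17b10 and the thiolase Acat1, and ends in propionyl-CoA and acetyl-CoA. Abat is an aminotransferase best known for breaking down the transmitter GABA, and it also moves an amino group between beta-aminoisobutyrate and the semialdehyde of the valine branch.

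Promoter sequence from RefSeq (GRCm38.p6) was matched to 7 of the 9 genes, and Acat1 and Abat were not among them. The bases upstream of 4 genes follow, 5′ to 3′ on each gene's strand and ending before the annotated start. They were picked to set the dehydrogenase pair Acad8 and Acadsb beside Aldh6a1, which had the widest spread among the abundant enzymes, and Hsd17b10, whose level hardly differed between the groups. Capitals mark a GC box (GGGCGG, or CCGCCC on the other strand) or a CCAAT box (CCAAT, or ATTGG on the other strand).
Acad8, chr9:26999567-26999799, minus strand: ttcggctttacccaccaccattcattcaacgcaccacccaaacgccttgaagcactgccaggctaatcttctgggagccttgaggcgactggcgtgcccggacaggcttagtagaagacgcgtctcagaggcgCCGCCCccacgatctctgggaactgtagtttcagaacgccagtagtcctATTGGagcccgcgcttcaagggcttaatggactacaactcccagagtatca
Acadsb, chr7:131410351-131410600, plus strand: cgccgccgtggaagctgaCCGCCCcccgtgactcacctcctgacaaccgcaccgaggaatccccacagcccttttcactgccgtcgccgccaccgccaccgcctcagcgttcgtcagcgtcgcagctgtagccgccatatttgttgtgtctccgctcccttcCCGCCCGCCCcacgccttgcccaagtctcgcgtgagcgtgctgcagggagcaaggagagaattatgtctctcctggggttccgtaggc
Aldh6a1, chr12:84451025-84451274, minus strand: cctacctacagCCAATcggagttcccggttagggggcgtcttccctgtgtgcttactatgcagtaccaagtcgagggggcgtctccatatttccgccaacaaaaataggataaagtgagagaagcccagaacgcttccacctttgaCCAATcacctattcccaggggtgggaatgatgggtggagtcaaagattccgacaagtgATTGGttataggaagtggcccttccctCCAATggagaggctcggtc
Hsd17b10, chrX:152001646-152001844, plus strand: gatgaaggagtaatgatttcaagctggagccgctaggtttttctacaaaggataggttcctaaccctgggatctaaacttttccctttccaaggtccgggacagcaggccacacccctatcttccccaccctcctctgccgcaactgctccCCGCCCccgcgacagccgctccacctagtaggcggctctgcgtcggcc
In these stretches Acadsb held 3 GC boxes, partly overlapping, and no CCAAT box, Aldh6a1 held 4 CCAAT boxes and no GC box, and Acad8 held 1 of each. Hsd17b10 held 1 GC box. Each stretch ended before the earlier of the RefSeq and GENCODE starts, which shortened those of Acad8 and Hsd17b10. Boxes left unmarked by this were GC boxes at -14 and -9 from the RefSeq start of Acad8 and a CCAAT box at -53 from that of Hsd17b10. Over windows of 300 bases around each start, a GC box lay in 6 and a CCAAT box in 5 of the 8 windows of these 7 genes. This compares with 35.7% and 37.4% of all 32851 windows. The 8 windows held 42.3% to 66.3% G and C and 4 to 29 CG letter pairs, against medians of 52.7% and 7 over all windows. The shares of boxes were not adjusted for this composition. The estrogen-related receptor element searched for (TNAAGGTCA) and the TATA box (TATAAA) were in no window of these genes, against 1.28% and 13.6% of all windows. An NRF1 element was in that of Hibadh alone, against 6.23% of all windows. Both strands were searched, and a GC box can overlap another; the matches describe letters only.

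Reads counted in genes came to between 22418031 and 25084627 in the knockout-labelled libraries and between 18781401 and 20471963 in the heterozygous-labelled ones, which was 51.0% to 58.3% and 43.9% to 48.4% of the column totals. The targeted gene Fam195a stood at 50.5, 82.0 and 81.3 CPM (gene reads relative to the library's total, with totals scaled by TMM) in knockout 1, 2 and 3, against 69.0, 70.5 and 103 CPM in heterozygous 1, 2 and 3. The groups overlapped (log2 fold change -0.18, SE 0.241, edgeR adjusted p = 0.896), so this count does not bear out the labels, and every direction below is that of libraries labelled knockout relative to libraries labelled heterozygous. Gene-level counts cannot tell whether part of the transcript is missing. The titles carry a prefix whose meaning is not given, RE for the third library of each group and RF for the other 4, and values within each prefix are given below. Brown adipocyte markers summed to 21101 to 26306 CPM in the knockout-labelled libraries and 20970 to 21922 CPM in the heterozygous-labelled ones. All 14 markers had counts, with log2 fold changes below 0 in 9 and above 0 in 5. Of the 14, 1, Elovl3, rose, and Cidea lay higher with the groups apart. Fabp4 alone gave 9933 to 12355 CPM of the sum in the knockout-labelled libraries. In the heterozygous-labelled ones it gave 9141 to 11670 CPM, so the sum can hide changes in other markers. Ucp1 stood at 4390, 5693 and 1647 CPM in knockout 1, 2 and 3, against 4898, 5290 and 2963 CPM in heterozygous 1, 2 and 3. The 26 skeletal muscle markers summed to 4170 to 7471 CPM in the knockout-labelled libraries, against 11872 to 36053 CPM in the heterozygous-labelled ones. In each of those 26 genes the knockout-labelled libraries lay below all the heterozygous-labelled ones (median log2 fold change -2.22); 0 passed by edgeR, 26 had an unadjusted p under 0.05 and 25 passed by DESeq2. Summed levels of macrophage, endothelial, lymphocyte, fibroblast, red blood cell and white adipocyte markers overlapped between the groups. Of the 5 red blood cell markers 4 had no count in any library, and of the 10 lymphocyte markers 3 passed the filter on low counts. Overlap in those sums therefore says little about such cells. Lep alone gave 281 of the 601 CPM of the white adipocyte sum in knockout 3. In tissue RNA, fewer cells of a type and less RNA per cell cannot be told apart.

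Acat1 and Acad8 fell in the knockout-labelled libraries, 5 other enzymes lay lower with the groups apart but did not pass the test, and Hsd17b10 and Abat overlapped between the groups. All 9 had log2 fold changes below 0, with a median of -0.93, against a median of 0.02 over all 13300 genes tested, of which 6234 (46.9%) were below 0. Acat1, the thiolase, and Acad8, the isobutyryl-CoA dehydrogenase, were the 2 that passed the threshold (edgeR quasi-likelihood test with Benjamini-Hochberg adjustment over all genes, adjusted p under 0.05). Over all genes 0.586% passed, and 0.534% passed as lower. No member rose at an adjusted p under 0.05 by edgeR, DESeq2 or limma-voom, and 0 had an unadjusted p under 0.05 in that direction. In 7 of the 9 genes every knockout-labelled library lay below every heterozygous-labelled one, which held for 9.89% of all genes tested; the exceptions were Hsd17b10 and Abat. The same 7 had an unadjusted p under 0.05, against 12.1% of all genes tested in either direction. Together the 9 transcripts took 0.128% to 0.203% of the gene reads in the knockout-labelled libraries (0.161% ± 0.0378, SD, n = 3) and 0.316% to 0.419% in the heterozygous-labelled ones (0.358% ± 0.0541, SD, n = 3).

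**Figure D1:**
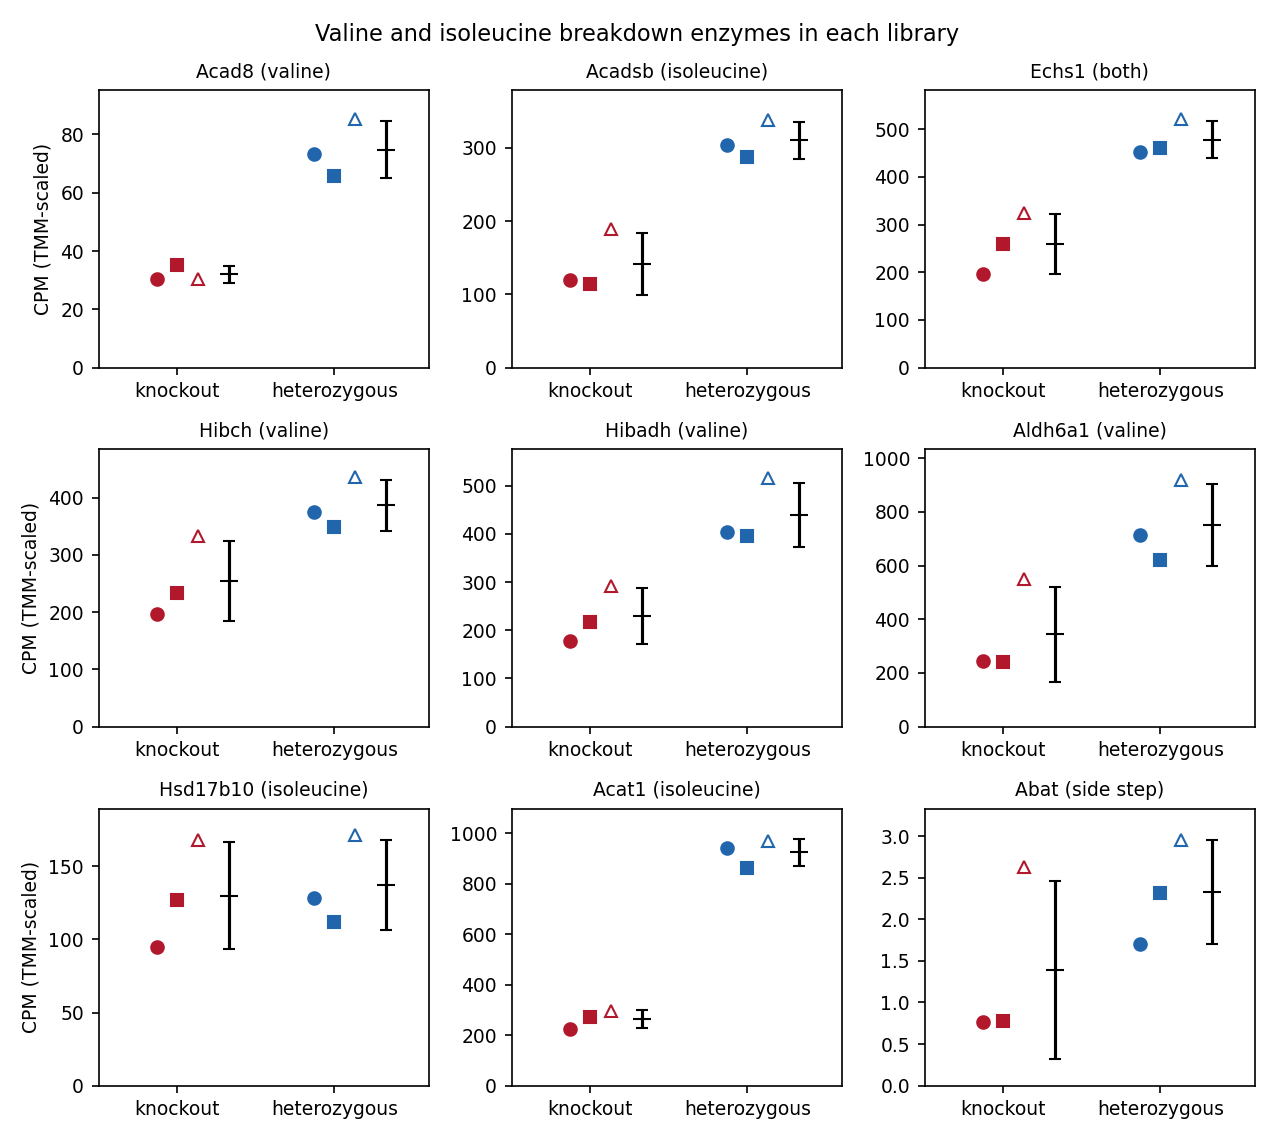
Level of each of the 9 transcripts, in CPM on a linear axis from 0, in the knockout-labelled libraries (red) and the heterozygous-labelled libraries (blue). Circles, squares and open triangles are libraries 1, 2 and 3 of a group, and black bars give the mean and SD (n = 3). The groups are apart in 7 panels and overlap for Hsd17b10 and Abat.

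Both branches open with an acyl-CoA dehydrogenase. Acad8, which oxidises isobutyryl-CoA from valine, lies on the minus strand of chromosome 9 at 26974135 to 26999566 (GRCm38). Its level was 30.4, 35.3 and 30.4 CPM in knockout 1, 2 and 3, against 73.1, 65.9 and 85.2 CPM in heterozygous 1, 2 and 3. The knockout-labelled libraries differed little among themselves and none came near the lowest heterozygous-labelled one. The log2 fold change was -1.22 (SE 0.145, 95% interval -1.56 to -0.88, edgeR adjusted p = 0.0259), or 2.33-fold lower.

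Acadsb, which does the same for 2-methylbutyryl-CoA from isoleucine, lies on the plus strand of chromosome 7 at 131410601 to 131448944. It stood at 120, 115 and 190 CPM in knockout 1, 2 and 3, against 304, 288 and 338 CPM in heterozygous 1, 2 and 3. Knockout 3 was higher than the other knockout-labelled libraries, and the groups were still apart. The log2 fold change of -1.13 (SE 0.216, 95% interval -1.64 to -0.63) did not pass (edgeR adjusted p = 0.0736). It passed without knockout 3 (-1.41, edgeR adjusted p = 0.0216), and with no other single library left out (edgeR adjusted p from 0.0811 to 0.267).

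The log2 ratio of Acad8 to Acadsb counts was -1.98, -1.70 and -2.64 in knockout 1, 2 and 3 and -2.05, -2.13 and -1.99 in heterozygous 1, 2 and 3. It differed by -0.05 between the groups (exact permutation test, two-sided, p = 1.0, adjusted over 4 pairs 1.0), and by 0.22 without knockout 3. The ratio thus spread more widely over the knockout-labelled libraries (SD 0.486) than over the heterozygous-labelled ones (SD 0.0696).

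Echs1, the short-chain enoyl-CoA hydratase that serves both branches and fatty acid oxidation, lies on the minus strand of chromosome 7 at 140105710 to 140116476. It stood at 197, 259 and 324 CPM in knockout 1, 2 and 3, against 452, 461 and 522 CPM in heterozygous 1, 2 and 3. All knockout-labelled libraries were below the others, with knockout 1 the lowest. Its log2 fold change was -0.88 (SE 0.198, 95% interval -1.34 to -0.42, edgeR adjusted p = 0.0853). Of the bases in its annotated exons, 1.71% overlap exons of Paox on the opposite strand.

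The later valine steps did not pass singly, and in each the groups were apart. Hibch, which frees 3-hydroxyisobutyrate from coenzyme A, lies on the plus strand of chromosome 1 at 52844929 to 52920986. It stood at 198, 234 and 333 CPM in knockout 1, 2 and 3, against 375, 349 and 436 CPM in heterozygous 1, 2 and 3. Knockout 3 came close to the lowest heterozygous-labelled library, and the gap between the groups was narrow. This gave a log2 fold change of -0.60 (SE 0.213, 95% interval -1.10 to -0.10, edgeR adjusted p = 0.286).

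Hibadh, the 3-hydroxyisobutyrate dehydrogenase of the next step, lies on the minus strand of chromosome 6 at 52546228 to 52640389. It stood at 178, 218 and 293 CPM in knockout 1, 2 and 3, against 404, 397 and 515 CPM in heterozygous 1, 2 and 3. The gap between the groups was wider than for Hibch (log2 fold change -0.93, SE 0.215, 95% interval -1.44 to -0.43, edgeR adjusted p = 0.0886). The log2 ratio of Hibch to Hibadh was 0.15 ± 0.0423 in the knockout-labelled libraries and -0.18 ± 0.0682 in the heterozygous-labelled ones (SD, n = 3 each). It was positive in all 3 knockout-labelled libraries and negative in all 3 others (difference 0.32, two-sided exact permutation p = 0.1, the lowest possible with 3 libraries a group, adjusted over 4 pairs 0.133).

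Aldh6a1, the methylmalonate semialdehyde dehydrogenase that closes the valine branch, lies on the minus strand of chromosome 12 at 84430717 to 84451004. It stood at 243, 242 and 549 CPM in knockout 1, 2 and 3, against 715, 622 and 918 CPM in heterozygous 1, 2 and 3. Knockout 3 held more than the other knockout-labelled libraries by a wide margin, and the coefficient of variation was 51.3% in the knockout-labelled group and 20.2% in the heterozygous-labelled one. The log2 fold change of -1.12 (SE 0.352, 95% interval -1.95 to -0.30) did not pass (edgeR adjusted p = 0.223). It was -1.64 without knockout 3 (edgeR adjusted p = 0.0305), and passed with no other single library left out (edgeR adjusted p from 0.34 to 0.513). Of its annotated exon bases, 18.6% overlap exons of Bbof1 on the opposite strand, so if strand was not used in counting, reads from that stretch cannot be assigned.

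The later isoleucine steps had fold changes of unequal size. Hsd17b10, which oxidises 2-methyl-3-hydroxybutyryl-CoA and is also a subunit of the mitochondrial RNase P that processes transfer RNAs, lies on the plus strand of chromosome X at 152001845 to 152004442. It stood at 95, 127 and 168 CPM in knockout 1, 2 and 3, against 128, 112 and 171 CPM in heterozygous 1, 2 and 3. The groups overlapped almost fully, and the third library was the highest in both. Its fold change on the log2 scale was -0.08 (SE 0.245, 95% interval -0.66 to 0.49, edgeR adjusted p = 0.961), and was 0.10 without knockout 1 and 0.11 without heterozygous 3.

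Acat1, the mitochondrial acetoacetyl-CoA thiolase that splits 2-methylacetoacetyl-CoA and also works in ketone body metabolism, lies on the minus strand of chromosome 9 at 53580522 to 53610382. It stood at 226, 274 and 297 CPM in knockout 1, 2 and 3, against 939, 862 and 969 CPM in heterozygous 1, 2 and 3. The knockout-labelled libraries held 24.5%, 29.6% and 32.1% of the heterozygous-labelled mean. The log2 fold change was -1.80 (SE 0.159, 95% interval -2.17 to -1.43, edgeR adjusted p = 0.0152), or 3.48-fold lower.

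The gap between the groups was wider for Acat1 than for its neighbours, in a design that cannot give a p below 0.1. The log2 ratio of Hsd17b10 to Acat1 was -1.06 ± 0.219 in the knockout-labelled libraries and -2.77 ± 0.239 in the heterozygous-labelled ones (SD, n = 3 each; difference 1.71, exact permutation test, two-sided, p = 0.1, adjusted over 4 pairs 0.133). The log2 ratio of Acat1 to Echs1 was 0.05 ± 0.162 in the knockout-labelled libraries and 0.95 ± 0.0916 in the heterozygous-labelled ones (difference -0.90, exact permutation test, two-sided, p = 0.1, adjusted over 4 pairs 0.133). Both ratios were apart in all 6 libraries, which is the most extreme arrangement this design can give. The 4 enzymes specific to valine had a mean log2 fold change of -0.97 (-1.22 to -0.60), and the 3 specific to isoleucine one of -1.0, spread from -1.80 to -0.08.

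Abat, on the plus strand of chromosome 16 at 8513429 to 8621568, was rare. It had 17, 20 and 57 reads in knockout 1, 2 and 3, against 32, 46 and 64 in heterozygous 1, 2 and 3. In CPM this was 0.762, 0.780 and 2.63 in knockout 1, 2 and 3, against 1.71, 2.32 and 2.95 in heterozygous 1, 2 and 3. Knockout 3 lay among the heterozygous-labelled libraries, and the 95% interval of the log2 fold change of -0.75 spanned 0 (-2.0 to 0.49, edgeR adjusted p = 0.718). Single libraries moved this value: it was -1.60 without knockout 3 (edgeR adjusted p = 0.154), -0.46 without knockout 1 or knockout 2 and -1.38 in the RF-titled libraries, and it passed in none of these fits. Intervals here cover the spread between these 6 mice only.

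**Figure D2:**
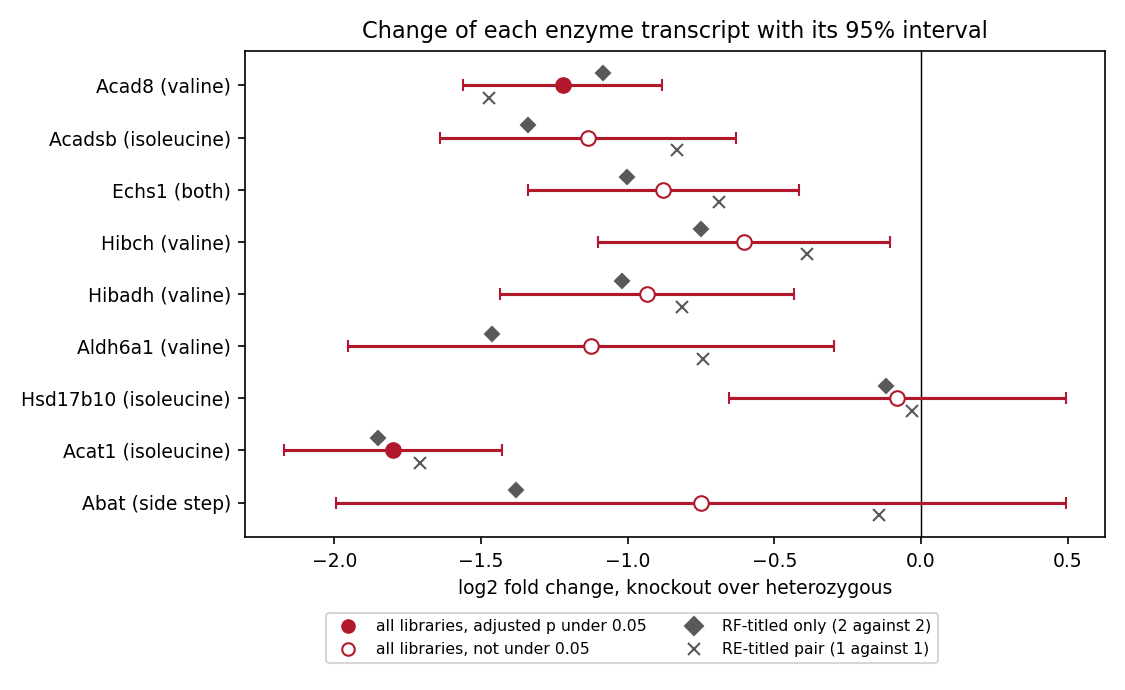
Log2 fold change of each transcript, knockout-labelled over heterozygous-labelled, with its 95% interval (circles with bars, 3 against 3; filled where the adjusted p was under 0.05). Diamonds give the RF-titled libraries alone (2 against 2) and crosses the RE-titled pair (1 against 1, no test). Acat1 lies lowest at -1.80 and Hsd17b10 nearest to 0 at -0.08.

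Library 3 carried the highest levels in both groups: knockout 3 was the highest knockout-labelled library in 8 of the 9 genes (all but Acad8) and heterozygous 3 the highest heterozygous-labelled one in 9 of 9. Both have RE titles. Knockout 1 was the lowest of its group in 7 genes and heterozygous 2 in 7. How often this holds over all genes was not counted. In a principal component analysis of all tested genes, component 2 (34.1% of the variance) also set the prefixes apart. It stood at -54.1 in knockout 3 and -19.4 in heterozygous 3, against 12.9 to 27.5 in the RF-titled libraries. The difference by title was therefore not particular to these enzymes. Within the RF-titled libraries the median log2 fold change of the 9 genes was -1.08, and 5 of them fell (Acad8, Acadsb, Acat1, Aldh6a1 and Hibadh), against 0.85% lower over all genes in that fit. In the RE-titled pair, which has no test, the log2 ratio was -1.71 for Acat1, -1.47 for Acad8, -0.83 for Acadsb, -0.82 for Hibadh, -0.74 for Aldh6a1, -0.69 for Echs1, -0.39 for Hibch, -0.14 for Abat and -0.03 for Hsd17b10. With the prefix as a covariate 6 genes fell, the same 5 and Echs1, where 1.83% of all genes were lower. Those 6 also fell by DESeq2, which called 4.44% of all genes lower, and by limma-voom with quality weights, which called 1.24% lower.

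The calls rested on particular libraries, while the sizes of the 2 called genes moved less. The 2 calls became 0 without knockout 1, knockout 2 or heterozygous 2; no gene at all passed by edgeR in those fits, while 5, 5 and 7 of the members had an unadjusted p under 0.05, against 10.8%, 10.3% and 9.29% of all genes tested in the same fits. Without heterozygous 3 Acat1 alone passed, without heterozygous 1 the same pair passed, and without knockout 3 Acadsb and Aldh6a1 joined it. The log2 fold change of Acat1 stayed between -1.89 and -1.69 over the 6 fits (edgeR adjusted p from 0.012 to 0.132) and that of Acad8 between -1.30 and -1.12 (edgeR adjusted p from 0.0173 to 0.132). Other members moved more, from -1.64 to -0.92 for Aldh6a1 and from -1.60 to -0.46 for Abat, and Hsd17b10 crossed 0.

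**Figure D3:**
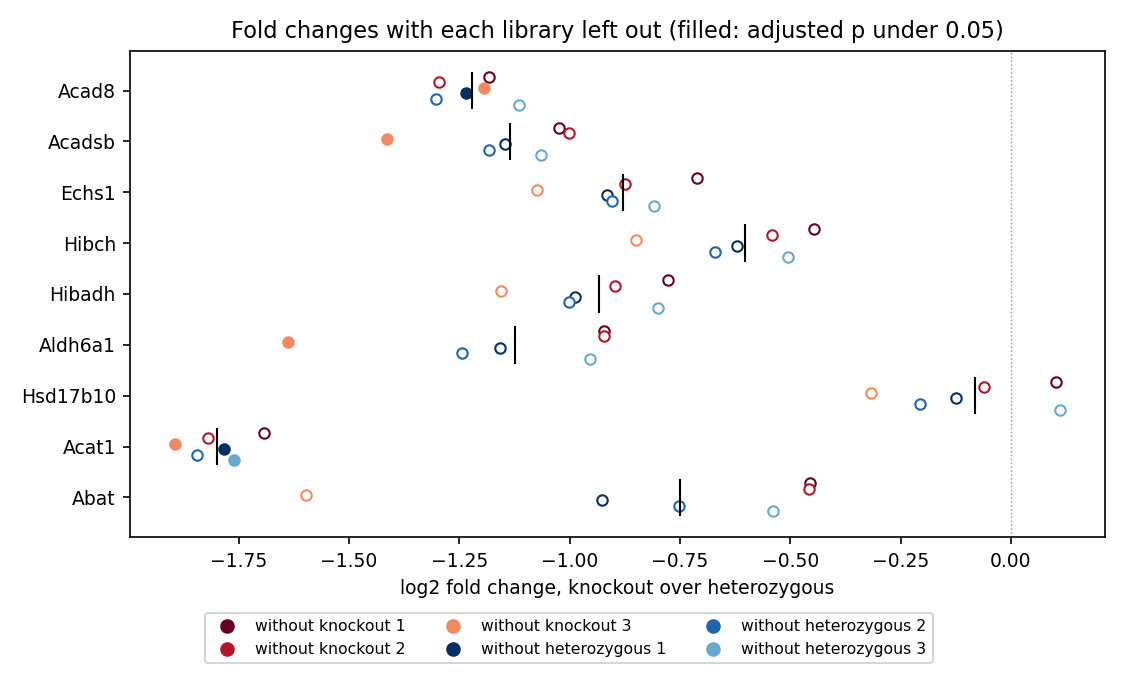
Log2 fold change of each transcript when 1 library is left out (6 fits; red shades, a knockout-labelled library; blue shades, a heterozygous-labelled one), filled where the adjusted p was under 0.05. Black ticks mark the value from all 6 libraries. Acat1 stays between -1.89 and -1.69, whereas Aldh6a1 runs from -1.64 to -0.92 and Hsd17b10 crosses 0.

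Summed muscle markers, like the summed enzymes, were lower in all 3 knockout-labelled libraries. Within the groups their order differed in part, with heterozygous 3 the highest of its group in both sums. Among knockout-labelled libraries the summed enzymes were 1288, 1504 and 2185 CPM in knockout 1, 2 and 3, and the summed muscle markers 7471, 4351 and 4170 CPM. Among heterozygous-labelled libraries the enzymes summed to 3391, 3158 and 3958 CPM in heterozygous 1, 2 and 3 and the muscle markers to 11872, 27814 and 36053 CPM. With the mean log2 CPM of the muscle markers as a covariate, Acat1 had a log2 fold change of -2.01 (SE 0.34) and Acad8 of -1.14 (SE 0.335). The median over the 9 genes was -1.06 in that fit, and 0 of 13300 genes passed by edgeR, with 3 members at an unadjusted p under 0.05, against 2.02% of all genes. Leaving muscle genes out of the library sizes kept the 2 calls, Acad8 and Acat1. The muscle score ran from 6.72 to 7.62 in the knockout-labelled libraries and from 8.26 to 9.96 in the heterozygous-labelled ones. As the groups do not overlap in it, the covariate fit cannot separate the score from the group label. How much of these fold changes comes with muscle RNA was not tested.

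**Figure D4:**
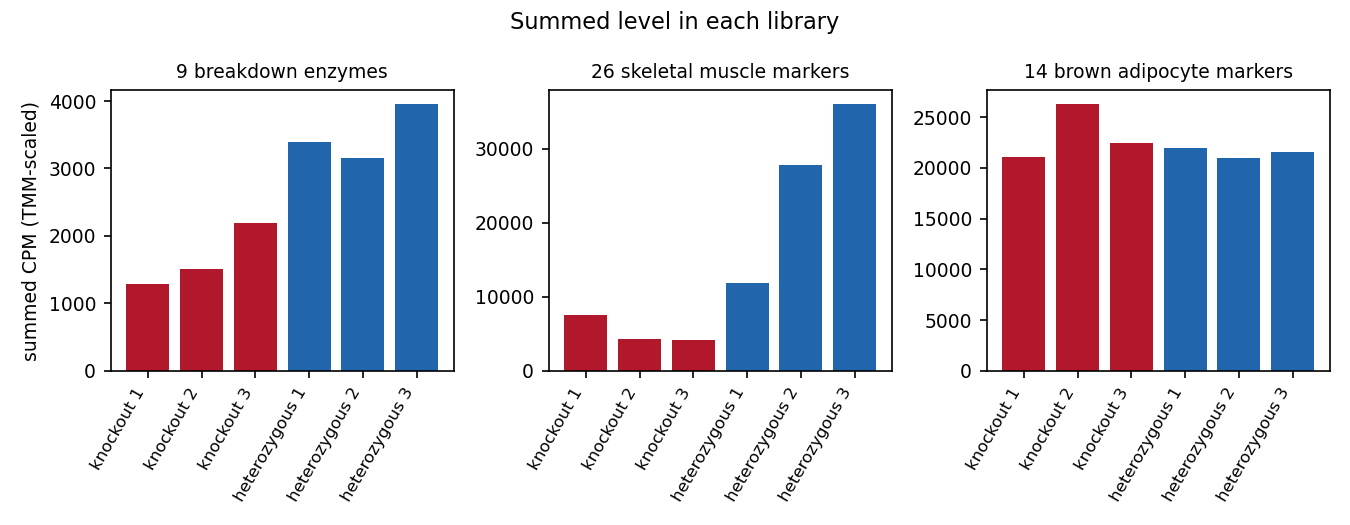
Summed CPM in each library (bars from 0; knockout-labelled red, heterozygous-labelled blue) for the 9 enzymes, 26 skeletal muscle markers and 14 brown adipocyte markers. Enzymes and muscle markers are lower in all 3 knockout-labelled libraries, and brown adipocyte markers overlap between the groups.

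Per kilobase of the principal annotated transcript, the enzymes differed widely in level. In the heterozygous-labelled libraries the order was Echs1 (307 ± 24.7 CPM per kilobase, SD, n = 3), Acat1 (271 ± 16.2), Hibadh (240 ± 36.5), Aldh6a1 (221 ± 44.6), Hibch (211 ± 24.3), Hsd17b10 (143 ± 31.9), Acadsb (51.0 ± 4.23), Acad8 (26.1 ± 3.42) and Abat (0.502 ± 0.134). Neighbours from Acat1 to Hibch overlapped in range, and the others did not. In the knockout-labelled libraries the order of levels was Echs1 (167 ± 40.6 CPM per kilobase), Hibch (139 ± 38.2), Hsd17b10 (135 ± 38.0), Hibadh (126 ± 31.9), Aldh6a1 (101 ± 52.0), Acat1 (77.9 ± 10.6), Acadsb (23.2 ± 6.92), Acad8 (11.2 ± 1.0) and Abat (0.300 ± 0.232). There neighbours from Echs1 to Acat1 overlapped in range, and the others, from Acat1 to Abat, did not. By the length of all annotated exons in place of the principal transcript, Acat1 came first in the heterozygous-labelled libraries, ahead of Aldh6a1 and Hsd17b10. Hsd17b10 came first in the knockout-labelled ones. Echs1 moved to place 5 in both groups, and Hibadh from place 3 to place 7 in the heterozygous-labelled libraries. The order thus depended on the length used, though Acad8 and Abat were again the last 2 in both groups.

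Genes of the neighbouring steps fell too. Of 59 other tested genes on the lists around these enzymes, 14 fell and none rose by edgeR, against 0.534% lower over all genes; by DESeq2 31 of 60 fell and none rose, against 4.44% lower over all genes. By edgeR 0 of the 59 passed without knockout 1, knockout 2 or heterozygous 2, with 35, 37 and 35 at an unadjusted p under 0.05 (10.8%, 10.3% and 9.29% of all genes in those fits), and 2 passed without heterozygous 3. With the muscle score as a covariate 0 passed by edgeR, with 23 at an unadjusted p under 0.05, against 2.02% of all genes. The lists share Ivd, Auh and Hadhb, each counted once here. In the 6 genes of the leucine branch (median log2 fold change -1.37), Ivd, the isovaleryl-CoA dehydrogenase (-2.05, SE 0.276), and the carboxylase subunits Mccc1 (-1.49) and Mccc2 (-1.26, edgeR adjusted p = 0.0368) fell. Of 9 genes from propionyl-CoA to succinyl-CoA (median -0.85), the propionyl-CoA carboxylase subunits Pcca (-1.41) and Pccb (-1.53) and the succinyl-CoA ligase subunit Suclg2 (-1.60) fell, each with groups apart. Of 11 genes of transport and the ketoacid step (median -0.54), the dehydrogenase complex subunits Bckdha (-1.07), Dbt (-1.40) and Dld (-0.97, edgeR adjusted p = 0.0475) fell. In that list 2 genes had higher values in all 3 knockout-labelled libraries and did not pass. They were Bcat1, a branched-chain aminotransferase of the cytosol (1.43, edgeR adjusted p = 0.229), and Slc25a44, the mitochondrial branched-chain amino acid carrier (0.56, edgeR adjusted p = 0.273). Bcat1 was rare, with a mean of 2.75 CPM in the knockout-labelled libraries and 1.02 CPM in the heterozygous-labelled ones. The other branched-chain aminotransferase, Bcat2, lay lower with the groups apart and did not pass (-1.52, edgeR adjusted p = 0.251). All 3 are named after their values were seen.

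Enzymes related to these by reaction were described by class. All 10 other acyl-CoA dehydrogenases were below 0 (median -1.05), and Ivd, Acad12 (-1.48), Acads (-1.26) and Acad9 (-0.93) fell. Acad9 is known as an assembly factor of complex I, and Acads handles short-chain fatty acids. Hadhb, the thiolase subunit of the trifunctional protein (-1.10), fell; it stands both in the list of 7 other thiolases and, as a subunit of that complex, in the list of 10 other hydratases and hydroxyacyl-CoA dehydrogenases. In the hydratase list (median -0.76) Echdc3 (-0.83) was the one other gene that fell. In the thiolase list (median 0.10) no other gene passed by edgeR or had an unadjusted p under 0.05. Cytosolic Acat2, which has the same reaction as Acat1, stood at 235 ± 29.9 CPM in the knockout-labelled libraries and 219 ± 24.6 CPM in the heterozygous-labelled ones (log2 fold change 0.10, SE 0.153, edgeR adjusted p = 0.914); its reads may be split with the close copy Acat3, and it is named here after its values were seen. Of 7 tested genes for other aldehyde dehydrogenases and for aminobutyrate handling (median -0.26), 0 passed by edgeR, 2 had an unadjusted p under 0.05 and 2 fell by DESeq2. The smallest p were those of Aldh4a1 (-1.31, edgeR adjusted p = 0.0736) and Aldh5a1, the succinate semialdehyde dehydrogenase downstream of Abat (-1.02, edgeR adjusted p = 0.0796). Of Hsd17b10's partners in mitochondrial RNase P, Trmt10c had a log2 fold change of -0.89 (SE 0.147, edgeR adjusted p = 0.0581) and the nuclease subunit 1110008L16Rik of -0.65 (SE 0.197, edgeR adjusted p = 0.202), both with groups apart.

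**Figure D5:**
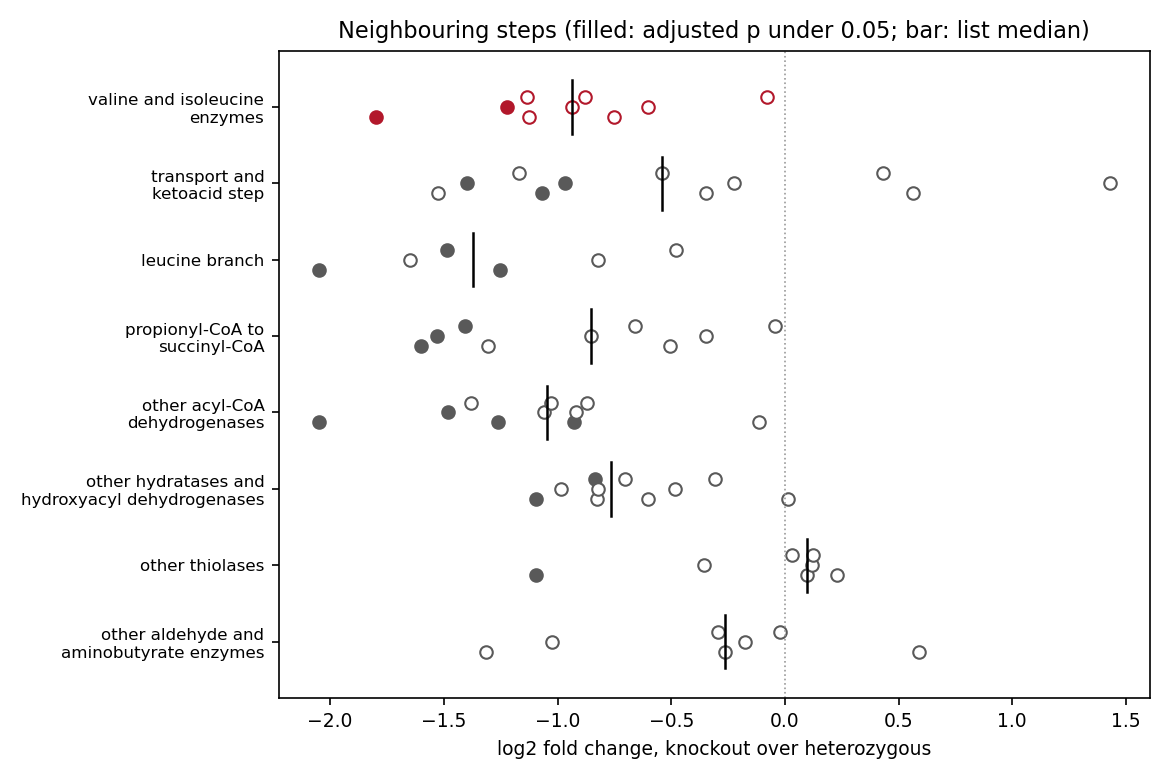
Log2 fold changes, knockout-labelled over heterozygous-labelled, of the 9 enzymes (red) and of neighbouring lists (grey), with 1 circle per gene, filled where the adjusted p was under 0.05. Black bars mark list medians, from -1.37 in the leucine branch to 0.10 in the other thiolases.

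Candidates for likeness were 8878 other genes whose mean log2 CPM was 3 or more and whose symbol was not a Gm, Rik or LOC name. Those whose profile over the 6 libraries lay nearest the mean profile of the 9 enzymes were Acad10, Aldh5a1, Sucla2, Pde1a and Phyh. Their root mean square distance was 0.0781, 0.0861, 0.0937, 0.106 and 0.11 on the log2 scale, against a median of 0.611 over those genes. Acad10 is an acyl-CoA dehydrogenase family member, Sucla2 a succinyl-CoA ligase subunit, Pde1a a cyclic nucleotide phosphodiesterase and Phyh a peroxisomal hydroxylase of phytanoyl-CoA. Their log2 fold changes ran from -1.06 to -0.80, with none under the threshold (edgeR adjusted p from 0.0789 to 0.197). Because these genes were picked for their nearness, the small distances and the like fold changes follow from the choice and are no separate result. Among the 9 themselves, each of which is part of that mean profile, Hibadh lay closest to it (0.0477), and Hsd17b10 (0.457) and Acat1 (0.439) farthest.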

How the data were processed

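RNA was extracted from frozen, pulverised brown adipose tissue with an RNeasy Micro kit, per the labels' protocols. The authors deposited read counts per gene symbol, not normalized, with closing lines for reads that name no gene. The submitters' processing notes name HTSeq, STAR 2.7.2b, SAMtools 1.9, edgeR, Trim Galore, Bowtie2 2.3.4.3 and the build mm10, without their roles. The strand setting and annotation are not given in the sources used. Reads in no gene, ambiguous, unaligned or not unique stayed out of library sizes and tests; reads in genes averaged 55.0% of the column totals in knockout-labelled and 46.0% in heterozygous-labelled libraries.

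Counts were tested with edgeR 4.0.16 (R 4.3.3; TMM, filterByExpr with minimum count 10 and minimum total 15, robust quasi-likelihood F test, Benjamini-Hochberg over 13300 genes, threshold 0.05). The fit used all 6 libraries without covariates. SEs were the fold change divided by the square root of F. CPM used TMM-scaled library sizes. Ratios of 2 genes were compared by exact permutation tests. Gene positions are from GENCODE M21 (GRCm38). Alternatives were other scalings and filters, each library left out, title prefix or muscle score as covariate, RF-titled libraries alone, DESeq2 1.42.0 and limma-voom (limma 3.58.1). On simulated data the edgeR step found 37% of the genes given a log2 change of 1 and 97% of those given 2, with 12 false among 146 calls over 13300 genes. Changes were given only to genes with higher counts, and each gene was drawn independently. Variation that many genes of a library share was left out, so these rates may not hold for the real libraries. No 2 libraries of a group agreed within sampling noise.

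The members and lists were chosen with earlier results of these data known, although the rule for the members uses no measured value. Named were the 9 enzymes, Fam195a, the genes past the threshold in each list or else up to 2 with the smallest p, and the 5 genes nearest in profile. Replicate numbers follow accession order and pair no libraries. The labels give 3 mice per genotype.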

Additional observations from a re-analysis of the deposited data

Results flagged for a closer look

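Reads that could not be assigned between overlapping genes made up 0.4408% of the column total on average in the knockout-labelled libraries (0.375% to 0.5004%) and 0.340% in the heterozygous-labelled ones (0.3264% to 0.3538%), with the groups apart. Relative to the reads counted in genes, which were themselves a larger part of the column total in the knockout-labelled libraries, the groups overlapped (0.7346% to 0.8586% in knockout-labelled and 0.7317% to 0.7439% in heterozygous-labelled libraries). Larger parts of the total lay the other way: reads aligned to more than 1 place averaged 18.3% in knockout-labelled and 22.9% in heterozygous-labelled libraries, and reads in no gene 24.1% in knockout-labelled and 28.6% in heterozygous-labelled libraries. The part of these differences in the enzymes' counts was not tested.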

How the results depend on the processing

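Of the 9 enzymes, 2 passed (Acad8 and Acat1), of all genes 78 and of the 59 neighbouring genes 14. Leaving out 1 library at a time gave 0 to 4 enzymes, 0 to 400 genes and 0 to 23 neighbouring genes. The prefix covariate gave 6, 311 and 29, the RF-titled libraries alone 5, 132 and 24, DESeq2 6, 755 and 31, and limma-voom 6, 194 and 26. The muscle score covariate gave 0, 0 and 0 by edgeR, with 268 genes, 3 of them members, at an unadjusted p under 0.05. Other scalings and filters gave counts within 1.5 times of these, 3 enzymes with library size alone included. Signs turned in single-library omissions for Hsd17b10 (-0.32 to 0.11, with 0.10 and 0.11 the values above 0) and Fam195a (-0.29 to 0.03, with 0.0173 and 0.0325 above 0). The Acad8 to Acadsb difference ran from -0.25 to 0.22, and was 0.26 in the RF-titled libraries. The causes were not tested. No pairing of all libraries was possible because the labels give the groups no shared replicate numbers. The title prefix, shared across groups, entered as the covariate above. It sets 1 library against 1 under RE and 2 against 2 under RF, and its meaning is not given. With 3 libraries a group, a p that misses the threshold does not show that an enzyme's level did not differ.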
